A study of Mus musculus with 8 samples.

Results

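The 37 genes described here cover the handling of fatty acids by heart muscle, from entry into the cell through storage in lipid droplets, transfer into mitochondria by the carnitine shuttle and breakdown by beta-oxidation. They were chosen as a named list of pathway genes, with earlier results of these data known. They were matched by Ensembl identifier to 37 of the 37991 rows of the count table, and all 37 passed the filter on low counts. RNA came from adult cardiomyocytes isolated from hearts of mice labelled alpha-MHC MERCREMER MADM. These mice carry a Cre recombinase under the alpha myosin heavy chain promoter, which acts in cardiomyocytes, and the MADM reporter (short for mosaic analysis with double markers), in which a recombined cell that divides can leave daughters of a single color. All hearts had received adenovirus encoding 4 cell cycle genes, and cells were collected 2 weeks later as single colored cells, labelled as having performed the cell cycle (4 libraries), or as double colored cells, treated in the same way and labelled as not having performed it (4 libraries). Cells of both groups thus came from injected hearts with the reporter, and no library without virus is analysed here. Age and sex are not given in the labels, nor is it stated whether replicates came from separate animals. A p-value therefore reflects how much these 8 libraries varied, part of which may be technical.

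The adult heart takes most of its energy from long-chain fatty acids. Lipoprotein lipase on the capillary wall releases them from circulating triglycerides, CD36 and transport proteins carry them across the sarcolemma, and acyl-CoA synthetases trap them as acyl-CoA, which is either stored as triglyceride in lipid droplets or passed to mitochondria. There, carnitine palmitoyltransferases carry the acyl group across the membranes, and each turn of the matrix cycle oxidizes, hydrates, oxidizes again and cleaves the chain, handing electrons to the respiratory chain through electron transfer flavoprotein.

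The libraries held 23820700 to 30082278 counted reads, of which mitochondrially encoded genes took 77.5% to 88.3%, leaving 3503353 to 6112595 nuclear-encoded reads. Levels are given as CPM, counts per library total scaled to a common size with TMM factors (trimmed mean of M values, which align the bulk of genes between libraries). Defining cardiomyocyte markers were abundant. Their summed level over 18 genes was 25599.8 to 32887 CPM in double and 15675 to 28608 CPM in single colored libraries, led by Ttn and Actc1. Among them only Tnnc1 had 0 reads in all libraries, and its gene model shares 99% of its exon length with another model on the same strand. The 17 tested cardiomyocyte markers were all negative in log2 fold change (single over double colored), the median being −0.36 and none past the threshold. Myeloid markers summed to 275 to 469 CPM in single against 139 to 190.4 CPM in double colored libraries, with 8 of 14 called higher and 1 lower (Cd163), and 8 of 10 tested lymphocyte markers were called higher. The 9 adipocyte markers summed to 2.68 to 3.72 CPM in single and 1.71 to 3.31 CPM in double colored libraries, Adipoq, Plin1, Lep, Adrb3 and Cidec had 0 reads in every library and Retn in every double colored one, and the highest were Pparg (2.63 ± 0.709 CPM in single against 1.54 ± 0.402 CPM in double) and Cidea (0.525 ± 0.146 and 0.658 ± 0.410 CPM). Fibroblast markers reached 658 to 1897 against 346 to 787 CPM, with 1 of 10 called higher (Col1a1). Of 10 endothelial and 7 tested smooth muscle and pericyte markers none was called, with medians of −0.14 and 0.01.

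Fatty acid genes were at lower TMM-scaled levels in single colored cells at nearly every step, but with group labels alone only 1 of them passed the test. Of the 37 genes, 35 had negative log2 fold changes, against 50.6% of all 12466 genes tested, and their median was −0.52 against −0.01 over all genes. Hadh, the short-chain hydroxyacyl-CoA dehydrogenase of the matrix, was the only gene past an adjusted p of 0.05 (edgeR quasi-likelihood test), 1 of 37 where 0.16% of all genes were called lower. None was called higher, against 2.32% of all genes. At an unadjusted p under 0.05, 20 of the 37 were lower and 1 higher, where 6.1% and 9.02% of all genes were. For 14 genes all 4 single colored libraries lay below all 4 double colored ones, which held for 3.76% of all genes. Of the 17 tested cardiomyocyte markers it also held for Actc1, Tnnt2, Tnni3, Tpm1, Myl3 and Pln and for no other. In each of the 4 numbered pairs 29 of the 37 were lower, a count not made over all genes. The tested cardiomyocyte markers were lower in each pair too, except Mybpc3 and Csrp3. With the replicate number as a block, 21 of the 37 passed, all lower, where 2.57% of all genes were called lower, and none was called higher, where 4.97% of all genes were. These 21 calls were made with TMM scaling. With the block and library totals 0 of the 37 were called lower, where 0.0963% of all genes were, and 1 higher (Ucp2), where 24.3% were. With the block and libraries scaled to the summed reads of cardiomyocyte markers, 1 was called lower (Ech1, where 0.112% of all genes were) and 1 higher (Ucp2, where 17% were). DESeq2 called 7 of the 37 lower, where 0.81% of all genes were, and 0 higher, where 3.65% were, and edgeR without the filter on low counts called 13, where 0.688% of 23680 genes were. In these bulk libraries a smaller share of cardiomyocytes and less of a transcript per cardiomyocyte cannot be told apart.

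Single colored replicate 1 stood apart. It had the lowest level of the 8 libraries for 32 of the 37 genes, with a median over the genes of −1.28 on the log2 scale relative to each gene's mean in double colored cells. The other single colored libraries had medians of −0.39, −0.23 and −0.43 for replicates 2, 3 and 4. Double colored replicate 3 had the highest level for 22 genes, with a median of 0.21. In single colored replicate 1 cardiomyocyte markers also took the smallest share of nuclear-encoded reads, 11.8%, against 16.8% to 20.7% in the other 7 libraries, and its part in the fold changes is given by leaving it out. Without it the median of the 37 genes was −0.35, 34 were still negative and none passed the threshold.

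**Figure D1:**
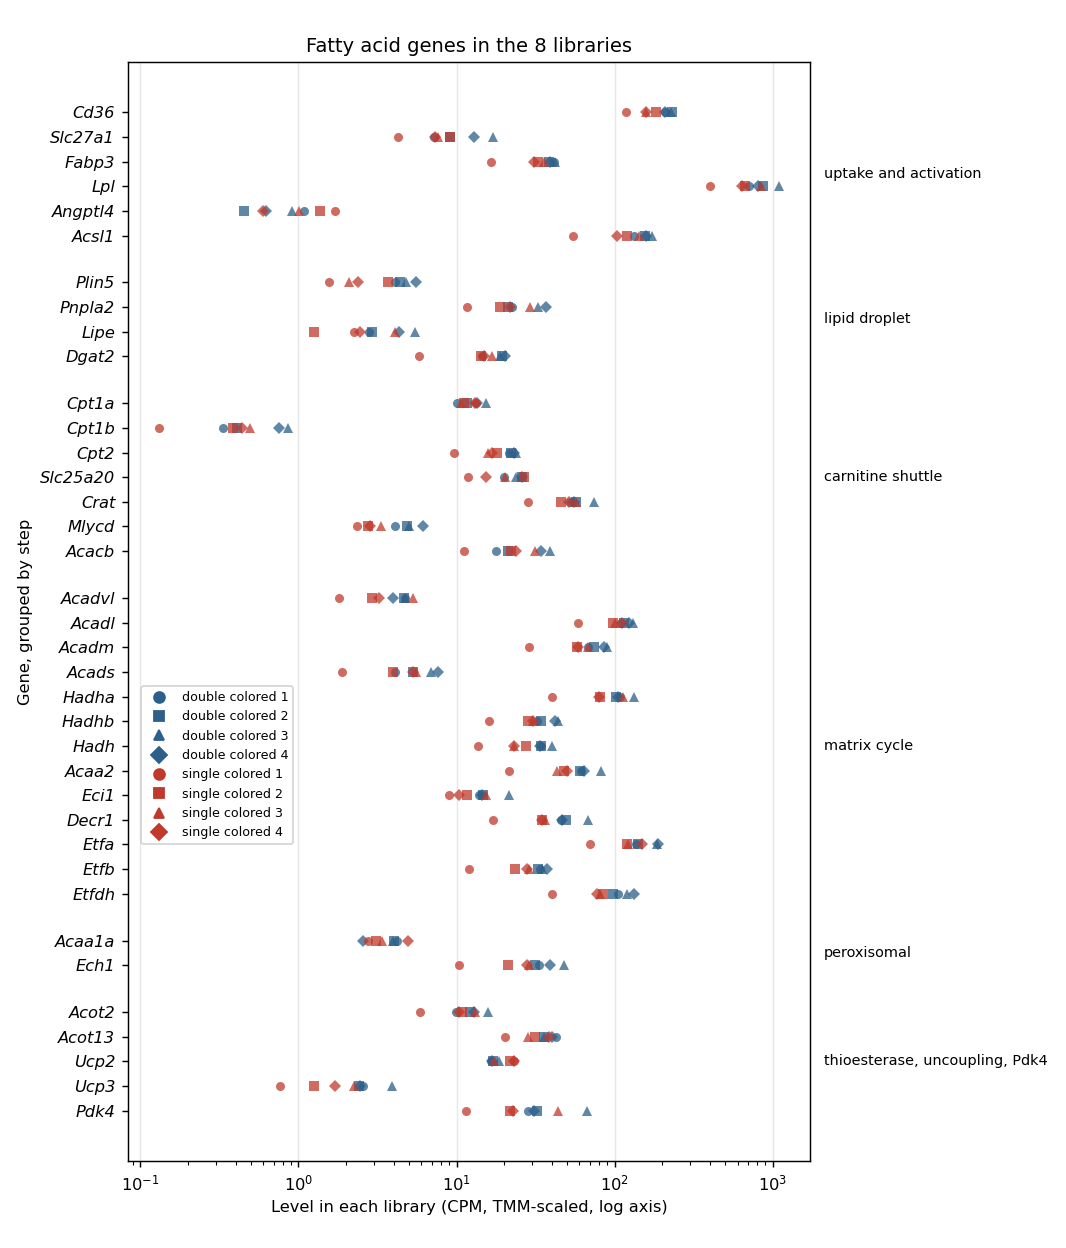
Level of each fatty acid gene in the 8 libraries (x axis, TMM-scaled CPM on a log axis), with genes on the y axis grouped by step, blue for double and red for single colored cells and 1 symbol shape per replicate number. Single colored replicate 1 (red circle) is the lowest point for 32 of the 37 genes, and the single colored means of Ucp2 and Angptl4 lie above the double colored ones.

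The size of the difference depended on what the libraries were scaled to. With library totals alone, which moved the median of all genes to 0.48, the median of the 37 was −0.07, 24 were negative and 13 positive, and the gene called was Ucp2, higher (log2 fold change 0.78, adjusted p by edgeR = 0.0310), where 11% of all genes were called higher. Scaled to the summed reads of the cardiomyocyte markers, which moved the median of all genes to 0.41, it was −0.19, with 31 negative and none called, where 0% of all genes were called lower. Measured from the median of all genes, the median of the 37 lay at −0.51 with TMM, −0.56 with totals and −0.60 with the marker scale, all on the log2 scale. The median of the 17 tested cardiomyocyte markers moved in the same way, from −0.36 with TMM to 0.07 with totals and −0.03 with the marker scale. A change of scaling shifts all genes of a library alike, so the 3 gaps are not separate support. The fold changes described below are therefore relative to the bulk of expressed genes. As a share of nuclear-encoded reads the 37 genes together took 1.46%, 1.51%, 1.81% and 1.55% in double colored replicates 1 to 4 and 0.83%, 1.29%, 1.38% and 1.27% in single colored ones, with no overlap. Set against the reads of the cardiomyocyte markers in the same library, they came to 7.29% to 9.33% in double and 7.02% to 7.67% in single colored libraries, and these ranges overlapped. Single genes weighed heavily in both sums. Ttn had means of 14951 CPM in double and 11963 CPM in single colored libraries. Lpl had 872 of a mean member sum of 2500 CPM in double and 639 of 1776 CPM in single colored ones.

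**Figure D2:**
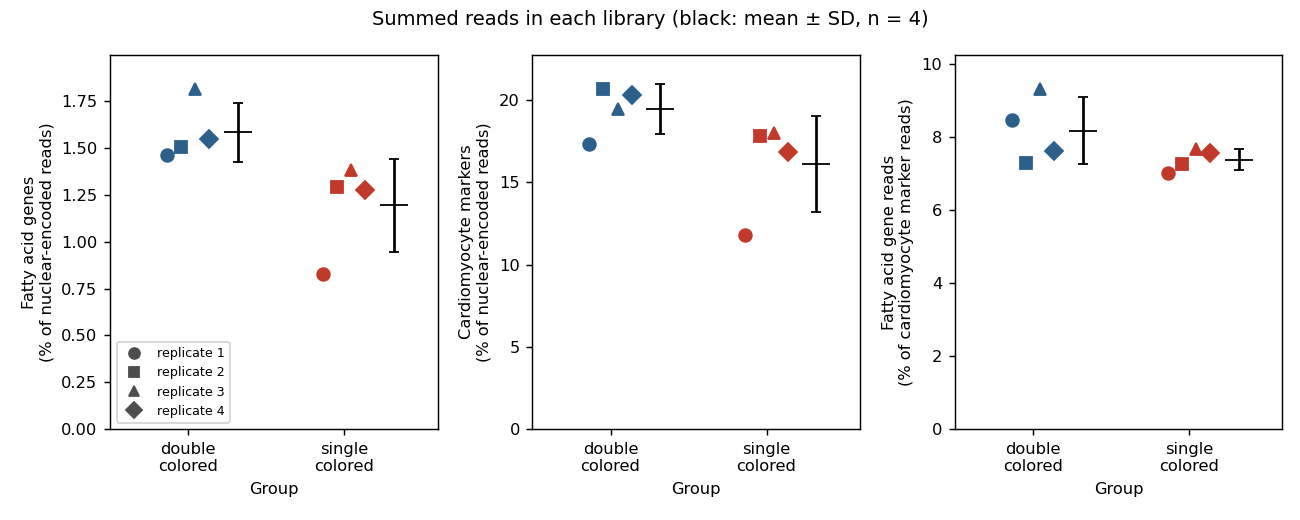
Summed reads in each library (y axes) for the 37 fatty acid genes and the 18 cardiomyocyte markers as percent of nuclear-encoded reads, and of the former as percent of the latter, by group (x axis), with black bars for mean ± SD (n = 4). In the left panel the single colored libraries reach up to 1.38% and the double colored ones start at 1.46%, and in the middle and right panels the groups overlap.

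**Figure D3:**
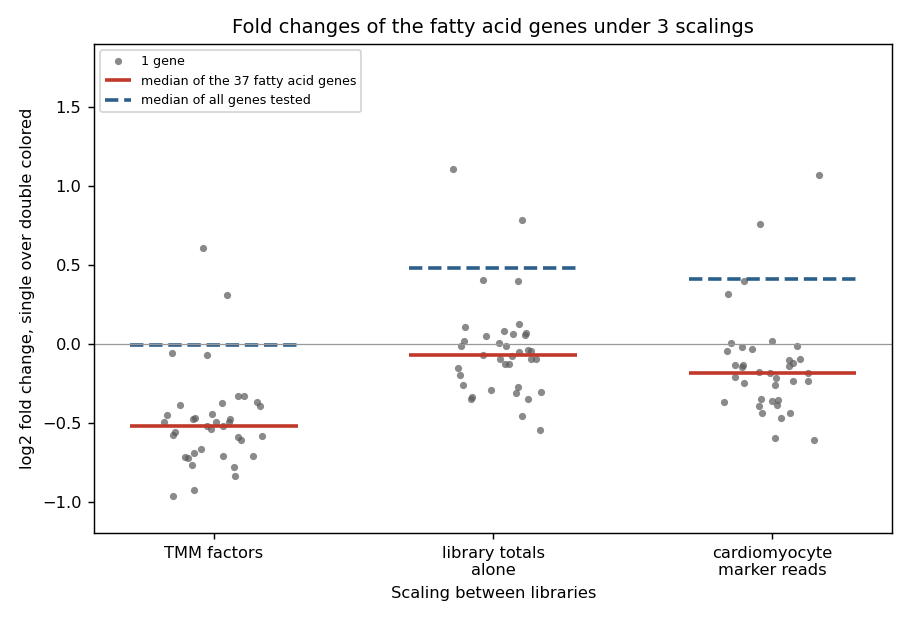
Log2 fold changes of the 37 fatty acid genes (points, y axis) under 3 scalings of the libraries (x axis), with their median (red line) and the median of all 12466 genes tested (dashed blue line). Both medians move together, as a change of scaling shifts all genes of a library alike. The red line lies below the blue one by 0.51 to 0.60.

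Genes of uptake and activation were negative in 5 of 6 cases, of which Lpl turned positive with library totals (0.02), with a median of −0.48 and none past the threshold. Cd36 (ENSMUSG00000002944, mm9 chromosome 5, 17287508 to 17394777), the main fatty acid translocase of the sarcolemma, was measured at 207, 230.2, 229 and 207 CPM in double colored replicates 1 to 4 and at 119, 183, 159 and 158 CPM in single colored ones. Every single colored library lay below every double colored one, with a log2 fold change of −0.50 ± 0.17 (SE) (adjusted p by edgeR = 0.147, 0.0220 with the replicate block). Fabp3, the heart fatty acid-binding protein that carries fatty acids through the cytosol, had 41.3, 38.5, 41.7 and 39.04 CPM in double and 16.5, 32.95, 35.6 and 31.05 CPM in single colored replicates. These groups did not overlap either; the log2 fold change was −0.47 ± 0.19 (SE) (adjusted p by edgeR = 0.256, 0.0505 with the block). Exons of Fabp3 share 19.6% of their length with genes of the other strand. Lpl, lipoprotein lipase, had the highest CPM of the 37 genes, 872 ± 166 CPM in double and 639 ± 184 CPM in single colored cells (SD, n = 4), with overlapping groups (log2 fold change −0.45 ± 0.23 (SE), adjusted p by edgeR = 0.370). Acsl1, the major acyl-CoA synthetase of the heart, stood at 155 ± 15.8 and 105 ± 37.7 CPM (log2 fold change −0.56 ± 0.23 (SE), adjusted p = 0.254, 0.0157 with the block). Slc27a1, a fatty acid transport protein, had a log2 fold change of −0.71 ± 0.27 (SE) (adjusted p = 0.203, 0.0253 with the block). The exception was Angptl4, a secreted inhibitor of lipoprotein lipase, with 1.09, 0.454, 0.907 and 0.626 CPM in double and 1.70, 1.36, 1.01 and 0.595 CPM in single colored replicates, from 10 to 65 reads per library. Its log2 fold change of 0.61 ± 0.43 (SE) did not exceed the spread between replicates (adjusted p by edgeR = 0.558). It was positive under each of the 3 scalings. Library totals and the marker scale moved the median of all genes up to 0.48 and 0.41, so that sign adds no support.

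The 4 lipid droplet genes were all negative (median log2 fold change −0.55), and 3 passed with the replicate block and TMM scaling, where 2.57% of all genes were called lower. Plin5 (ENSMUSG00000011305, mm9 chromosome 17, 56251024 to 56257019), the perilipin that ties droplets to mitochondria in oxidative tissue, had the most negative fold change of the 37 genes. It was measured at 4.10, 4.40, 4.79 and 5.51 CPM in double colored replicates 1 to 4 and at 1.57, 3.66, 2.08 and 2.38 CPM in single colored ones, from 60 to 132 reads per library. The groups did not overlap, with a log2 fold change of −0.96 ± 0.26 (SE) (adjusted p by edgeR = 0.0632, 0.0133 with the block), and without single colored replicate 2 it passed with the group labels alone (adjusted p = 0.0192). Pnpla2, the triglyceride lipase that opens droplet lipolysis, stood at 28.3 ± 7.65 CPM in double and 20.4 ± 7.27 CPM in single colored cells. Its groups overlapped, and it was lower in each of the 4 pairs (log2 fold change −0.48 ± 0.24 (SE), adjusted p by edgeR = 0.387, 0.0354 with the block). Dgat2, which makes triglyceride from diacylglycerol, showed 18.3 ± 2.54 and 12.96 ± 4.93 CPM (−0.50 ± 0.25 (SE), adjusted p = 0.380, 0.0366 with the block). Lipe, hormone-sensitive lipase, was lower in 4 of 4 pairs without passing in either fit (−0.61 ± 0.33 (SE), adjusted p = 0.402, 0.104 with the block). Synthesis (Dgat2), coating (Plin5) and lipolysis (Pnpla2, Lipe) genes thus all had fold changes of the same sign, including with library totals and with the marker scale.

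**Figure D4:**
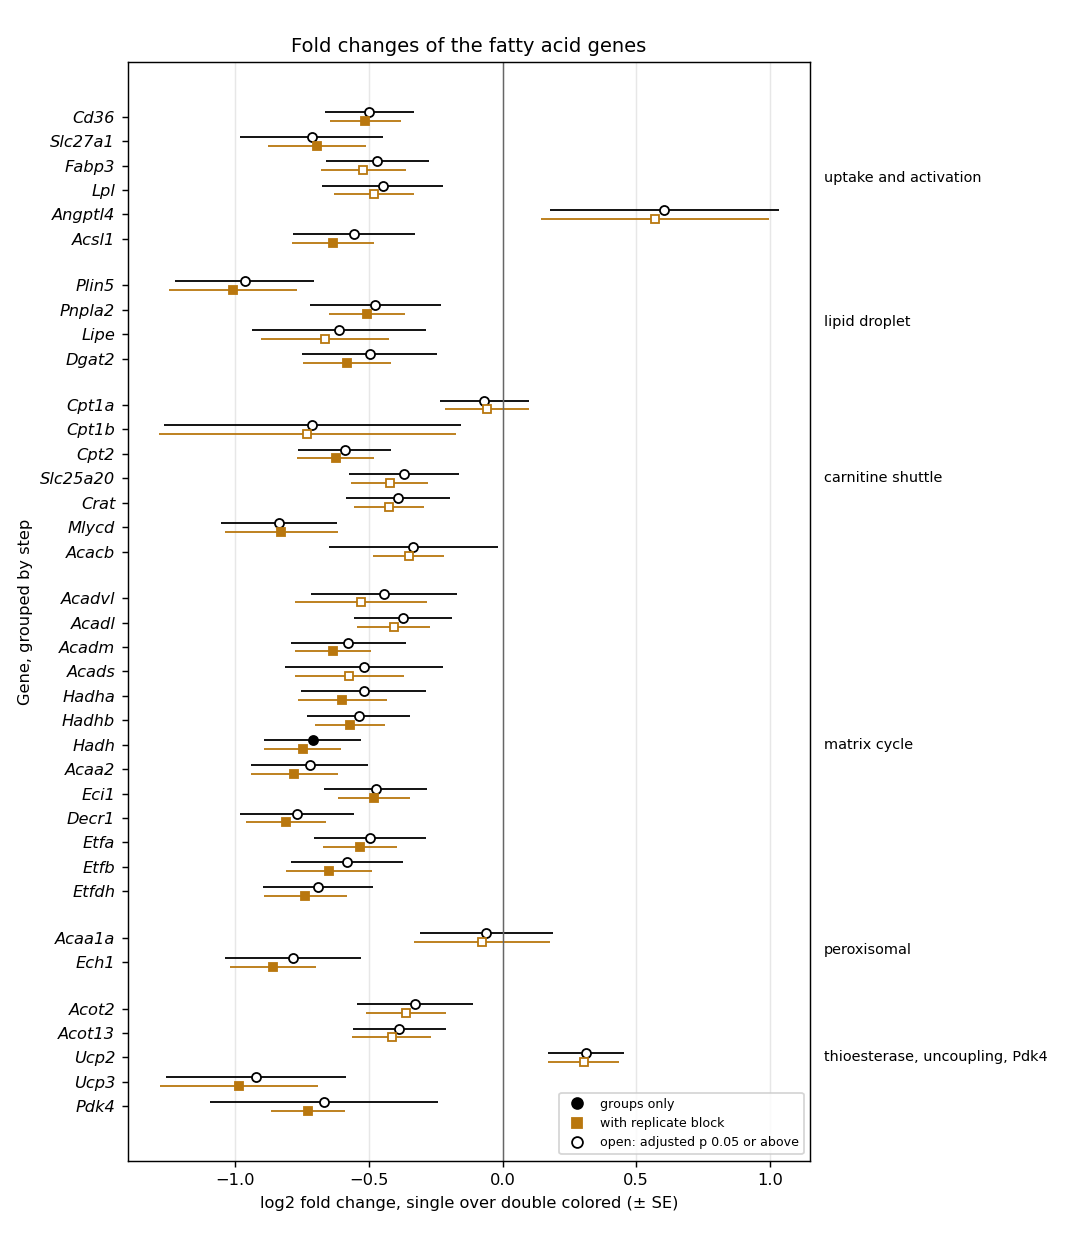
Log2 fold change of each gene, single over double colored cells, with its SE (x axis), from the fit on groups alone (black circles) and with the replicate block (orange squares), genes on the y axis grouped by step. Filled symbols passed an adjusted p of 0.05. Hadh is the only filled circle, and 21 squares are filled, 10 of them in the matrix cycle. With the block 2.57% of all genes were called lower, and both fits used TMM scaling. With library totals 11 of the negative values turn positive.

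The carnitine shuttle had a median of −0.39 over 7 genes, all negative, and the members with the smallest p were Mlycd and Cpt2. Mlycd (ENSMUSG00000074064, mm9 chromosome 8, 121918778 to 121935002) encodes malonyl-CoA decarboxylase, which removes the malonyl-CoA that blocks entry into the shuttle. Its level was 4.06, 4.86, 5.01 and 6.18 CPM in double and 2.36, 2.75, 3.33 and 2.82 CPM in single colored replicates 1 to 4. No single colored library reached the lowest double colored one, with a log2 fold change of −0.84 ± 0.22 (SE) and an adjusted p just above the threshold (edgeR, 0.0526, 0.0207 with the block). Acacb, the acetyl-CoA carboxylase that makes the same malonyl-CoA at the mitochondrial surface, stood at 27.9 ± 10.1 and 22.2 ± 8.38 CPM with overlapping groups (log2 fold change −0.33 ± 0.32 (SE), adjusted p by edgeR = 0.698), and its sign turned with library totals and with the marker scale (0.11 and 0.0029). Cpt2, which reforms acyl-CoA on the matrix side, had 21.6, 22.02, 23.7 and 23.1 CPM in double and 9.66, 17.9, 15.7 and 16.9 CPM in single colored replicates. The double colored libraries were tightly grouped and all lay above the single colored ones (log2 fold change −0.59 ± 0.17 (SE), adjusted p by edgeR = 0.0940, 0.0110 with the block). The carrier Slc25a20, which exchanges acylcarnitine for carnitine, and Crat, which makes acetylcarnitine, had log2 fold changes of −0.37 ± 0.20 (SE) and −0.39 ± 0.20 (SE) with overlapping groups (adjusted p = 0.425 and 0.363), and both turned positive with library totals (0.08 and 0.06). Cpt1a, an outer membrane enzyme that commits acyl groups to the shuttle and predominates in liver, stood at 9.999, 11.7, 15.3 and 13.4 CPM in double and 13.2, 11.1, 10.7 and 13.1 CPM in single colored replicates. It was the gene nearest to no change in this step (log2 fold change −0.07 ± 0.17 (SE), adjusted p by edgeR = 0.908), and its sign turned with library totals and with the marker scale (0.40 and 0.40).

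The muscle isoform Cpt1b (ENSMUSG00000078937, mm9 chromosome 15, 89246836 to 89256294) had only 5 to 20 reads per library. Its exons overlap Chkb on the same strand over 81.4% of their length, the labels and headers do not say how reads there were assigned, and its level against other genes cannot be read from these counts. Within these limits its log2 fold change was −0.71 ± 0.55 (SE) (adjusted p by edgeR = 0.606). The ratio of Cpt1b to Cpt1a reads was 0.0355, 0.0369, 0.0577 and 0.0575 in double and 0.0109, 0.0361, 0.0473 and 0.0348 in single colored replicates 1 to 4. It was lower in 4 of 4 pairs, with a difference in mean log2 ratio of −0.69 (exact permutation test, two-sided, p = 0.171, also 0.171 adjusted over the 2 ratios tested), which did not exceed the spread between replicates. Without single colored replicate 1 the difference was −0.23.

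The matrix cycle was negative throughout, in 13 of 13 genes, with a median of −0.54 and a range of −0.77 to −0.37. Hadh (ENSMUSG00000027984, mm9 chromosome 3, 130936337 to 130975019), which oxidizes the hydroxyacyl intermediate of medium and short chains, was measured at 34.3, 34.4, 40.1 and 33.6 CPM in double colored replicates 1 to 4 and at 13.7, 27.4, 23.2 and 22.96 CPM in single colored ones. It fell by 0.71 ± 0.18 (SE) on the log2 scale (adjusted p by edgeR = 0.0491, 0.00301 with the block), with no overlap between groups. The call was narrow. Of the 8 fits that omit a library it was kept in 1, without single colored replicate 2, and the adjusted p ranged from 0.0324 to 0.149. With the marker scale its log2 fold change was −0.36 (adjusted p = 0.291).

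Among the acyl-CoA dehydrogenases, which take the first oxidation and differ by chain length, Acadl (long chains) stood at 119.7 ± 8.80 CPM in double and 92.5 ± 23.00 CPM in single colored cells (log2 fold change −0.37 ± 0.18 (SE), adjusted p by edgeR = 0.361). Acadm (medium chains) had 67.7, 74.1, 90.1 and 86.1 CPM in double and 28.7, 58.1, 67.6 and 58.9 CPM in single colored replicates. The groups of Acadm did not overlap, those of Acadl did, and Acadm passed with the block (log2 fold change −0.58 ± 0.21 (SE), adjusted p by edgeR = 0.199, 0.00925 with the block). Acads (short chains) and Acadvl (very long chains) had log2 fold changes of −0.52 ± 0.30 (SE) and −0.44 ± 0.27 (SE) at 69 to 214 reads per library (adjusted p = 0.441 and 0.484), and exons of Acadvl share 42.9% of their length with Dvl2 of the other strand. Both chains of the trifunctional protein, which carries the later steps for long chains at the inner membrane, had fold changes close to each other. Hadha, the alpha chain, had 112 ± 13.4 and 78.2 ± 29.7 CPM (log2 fold change −0.52 ± 0.23 (SE), adjusted p by edgeR = 0.301, 0.0314 with the block), and Hadhb, the beta chain, 38.2 ± 5.78 and 26.4 ± 6.95 CPM (log2 fold change −0.54 ± 0.19 (SE), adjusted p = 0.180, 0.0107 with the block).

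Acaa2, the matrix thiolase that cleaves off acetyl-CoA, was at 61.5, 60.02, 82.7 and 64.5 CPM in double and 21.5, 48.2, 43.2 and 50.2 CPM in single colored replicates, without overlap (log2 fold change −0.72 ± 0.22 (SE), adjusted p by edgeR = 0.106, 0.00582 with the block). Decr1 and Eci1 handle double bonds of unsaturated chains. Decr1, the dienoyl-CoA reductase, had 45.9, 49.04, 67.7 and 46.7 CPM in double and 16.96, 34.9, 36.5 and 34.6 CPM in single colored replicates, and its log2 fold change of −0.77 ± 0.21 (SE) was the most negative of the matrix genes (adjusted p by edgeR = 0.0738, 0.00203 with the block). Its groups were separate, with the lowest single colored value at 16.96 CPM and the next at 34.6 CPM. Eci1, the enoyl-CoA isomerase, overlapped between groups (−0.47 ± 0.19 (SE), adjusted p = 0.246, 0.0338 with the block).

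Electron transfer flavoprotein and its dehydrogenase, which pass electrons from the acyl-CoA dehydrogenases to ubiquinone, were lower in 4 of 4 pairs for all 3 genes. Etfdh had 106, 97.7, 119 and 133 CPM in double and 40.3, 84.2, 80.4 and 76.9 CPM in single colored replicates, without overlap (log2 fold change −0.69 ± 0.21 (SE), adjusted p by edgeR = 0.0978, 0.00611 with the block). The flavoprotein subunit genes Etfa and Etfb had log2 fold changes of −0.50 ± 0.21 (SE) and −0.58 ± 0.21 (SE) (adjusted p = 0.274 and 0.186, 0.0237 and 0.0176 with the block). With the block and TMM scaling 10 of the 13 matrix genes were called lower, where 2.57% of all genes were. The exceptions were Acads, Acadl and Acadvl. All 13 were also negative with the marker scale, while with library totals Acadvl, Acadl and Eci1 turned positive (0.06, 0.07 and 0.0041).

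Upstream sequences are shown for the called matrix gene Hadh and for Acadm, 1 of 10 matrix genes that passed with the block. They are shown because nuclear receptors of the PPAR and ERR families are known to act on such genes through the hexamer AGGTCA. Of those 10 genes only Acadm had the hexamer in a promoter found here, so it does not stand for the others. RefSeq promoters (GRCm38.p6, the 250 bases before the start) were found for 29 of the 37 genes, with 34 starts. Not in the table were Lpl, Angptl4, Dgat2, Cpt1b, Crat, Acaa2, Decr1 and Acot13. AGGTCA on either strand lay in 6 of 34 member promoters (17.6%) and in 14.02% of all 32851 promoters, and the 6 genes were Acadm, Acadvl, Cd36, Cpt1a, Plin5 and Ucp3. The longer patterns AGGTCANAGGTCA and TCAAGGTCA, both of which contain it, were in none of the 34 and in 0.0335% and 0.387% of all promoters. Capitals mark AGGTCA or its reverse complement, each sequence runs 5′ to 3′ toward the start, and both genes lie on the minus strand (chr3:131272102-131272351 for Hadh and chr3:153944644-153944893 for Acadm).
Hadh: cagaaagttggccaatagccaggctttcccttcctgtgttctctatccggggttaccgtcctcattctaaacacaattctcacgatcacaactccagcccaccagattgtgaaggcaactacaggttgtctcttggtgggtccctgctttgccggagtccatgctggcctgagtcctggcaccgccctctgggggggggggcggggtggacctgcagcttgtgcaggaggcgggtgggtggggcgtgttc
Acadm: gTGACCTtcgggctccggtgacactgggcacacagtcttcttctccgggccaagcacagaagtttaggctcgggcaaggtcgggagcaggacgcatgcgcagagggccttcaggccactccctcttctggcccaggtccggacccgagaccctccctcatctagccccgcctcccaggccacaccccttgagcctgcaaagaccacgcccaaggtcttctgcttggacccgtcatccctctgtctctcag
The Acadm sequence holds the hexamer 249 bases before the start and the Hadh sequence does not hold it, which says only that these letters are or are not in this window.

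The 2 genes with peroxisomal products had fold changes far from each other. Ech1 (ENSMUSG00000053898, mm9 chromosome 7, 29610236 to 29617266), a dienoyl-CoA isomerase found in peroxisomes and mitochondria, had 33.3, 31.5, 47.6 and 39.2 CPM in double and 10.4, 21.2, 28.6 and 28.03 CPM in single colored replicates. The groups did not overlap, with a log2 fold change of −0.78 ± 0.25 (SE) (adjusted p by edgeR = 0.145, 0.00236 with the block). Ech1 was also the gene called lower when the block was combined with the marker scale (−0.48, adjusted p by edgeR = 0.0429), where 0.112% of all genes were called lower. In that fit Ucp2 was called higher (0.69, adjusted p = 0.00909), where 17% of all genes were. Acaa1a, the peroxisomal thiolase, had 4.23, 4.00, 3.97 and 2.55 CPM in double and 2.75, 3.10, 3.38 and 4.96 CPM in single colored replicates, and its groups were interleaved. Its log2 fold change was −0.06 ± 0.25 (SE) (adjusted p by edgeR = 0.951), and the sign turned with library totals, with the marker scale and without single colored replicate 1 (0.40, 0.31 and 0.04). Acaa1a exons share 6.57% of their length with Myd88 of the other strand. The difference between the peroxisomal and the matrix thiolase was not tested.

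Among genes of thioester release, uncoupling and fuel choice, Ucp3 and Ucp2 had fold changes of opposite sign. Ucp3 (ENSMUSG00000032942, mm9 chromosome 7, 107621499 to 107634941), the muscle uncoupling protein homolog, was measured at 2.55, 2.41, 3.93 and 2.46 CPM in double and 0.759, 1.26, 2.26 and 1.70 CPM in single colored replicates 1 to 4, from 29 to 91 reads per library. All single colored values lay below all double colored ones (log2 fold change −0.92 ± 0.34 (SE), adjusted p by edgeR = 0.188, 0.0475 with the block). Ucp2 (ENSMUSG00000033685, mm9 chromosome 7, 107641846 to 107650529), a broadly expressed paralog that is also abundant in leukocytes, had 16.6, 16.98, 18.6 and 16.9 CPM in double and 23.2, 21.9, 17.3 and 23.3 CPM in single colored replicates. It was higher in 3 of 4 pairs, with overlap through single colored replicate 3 (log2 fold change 0.31 ± 0.14 (SE), adjusted p by edgeR = 0.308, 0.194 with the block). Ucp2 was positive under each scaling, which adds no support, as library totals and the marker scale moved the bulk of genes upward. In the same libraries the myeloid marker sum was 275 to 469 CPM in single and 139 to 190.4 CPM in double colored cells, and the lymphocyte sum 18.1 to 36.8 and 1.96 to 5.15 CPM, and their part in the Ucp2 level was not tested.

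The ratio of Ucp3 to Ucp2 reads does not depend on the scaling between libraries. It was 0.155, 0.143, 0.213 and 0.147 in double colored replicates 1 to 4 and 0.0332, 0.0581, 0.131 and 0.0740 in single colored ones. Every single colored ratio was below every double colored one, and the mean log2 ratio was −3.93 ± 0.82 in single and −2.62 ± 0.26 in double colored cells (SD, n = 4), a 2.46-fold lower ratio. An exact permutation test, two-sided, gave p = 0.0286, the smallest that 70 groupings allow, and 0.0571 adjusted over the 2 ratios tested. Within pairs it was lower in 4 of 4, with an exact p of 0.125, the smallest that pairs allow. In bulk libraries the ratio can also depend on the mix of cells. The part in it of the myeloid and lymphocyte marker levels given above was not tested.

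**Figure D5:**
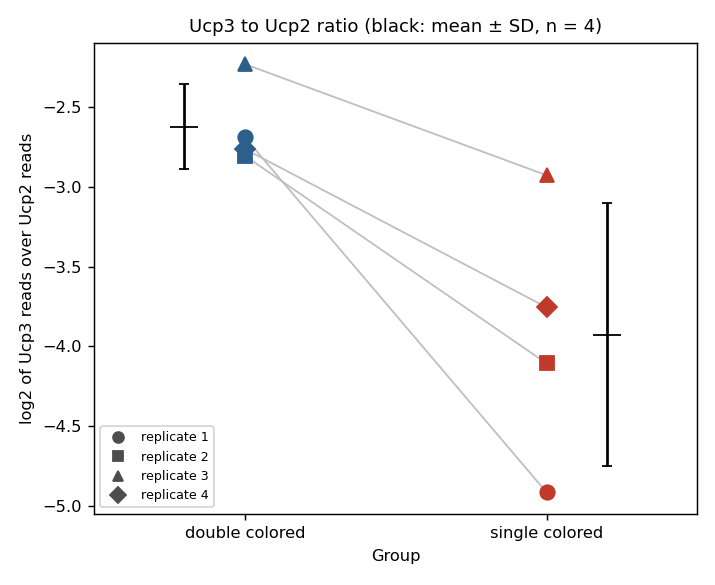
Log2 ratio of Ucp3 to Ucp2 reads in each library (y axis) by group (x axis), with lines joining libraries of the same replicate number and black bars for mean ± SD (n = 4). All 4 single colored libraries lie below all 4 double colored ones. The part of the mix of cells in this ratio was not tested.

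Both genes lie near each other on mouse chromosome 7, and their upstream sequences are shown because their fold changes had opposite signs (RefSeq, GRCm38.p6, plus strand, chr7:100472741-100472990 for Ucp3 and chr7:100493108-100493357 for Ucp2, capitals as above).
Ucp3: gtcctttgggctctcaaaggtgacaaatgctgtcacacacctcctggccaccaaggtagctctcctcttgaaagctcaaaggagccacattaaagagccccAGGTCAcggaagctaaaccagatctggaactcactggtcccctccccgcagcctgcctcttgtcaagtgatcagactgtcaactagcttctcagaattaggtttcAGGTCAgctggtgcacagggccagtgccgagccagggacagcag
Ucp2: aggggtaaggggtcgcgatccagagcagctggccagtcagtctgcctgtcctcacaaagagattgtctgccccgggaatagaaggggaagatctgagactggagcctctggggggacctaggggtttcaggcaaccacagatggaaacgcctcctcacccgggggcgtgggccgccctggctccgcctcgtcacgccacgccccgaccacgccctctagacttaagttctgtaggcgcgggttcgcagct
The Ucp3 sequence holds AGGTCA 149 and 44 bases before its start, and the Ucp2 sequence does not hold it in this window. The hexamer lay in 14.02% of all promoters, and the Hadh window, of a gene called lower, lacks it too. Its part in the levels of these genes was not tested.

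Pdk4, a kinase that switches off pyruvate dehydrogenase, had the largest SD relative to its mean of the 37 genes in both groups, with 28.3, 32.2, 67.3 and 31.1 CPM in double and 11.5, 21.7, 43.96 and 22.8 CPM in single colored replicates. Replicate 3 was the highest of its group on both sides, the groups overlapped, and each single colored library was below the double colored one of its number (log2 fold change −0.67 ± 0.43 (SE), adjusted p by edgeR = 0.525). With the replicate block the value was −0.73 and the adjusted p 0.00262. Acot2 and Acot13, thioesterases that release free fatty acid from acyl-CoA, had log2 fold changes of −0.33 ± 0.22 (SE) and −0.39 ± 0.18 (SE) (adjusted p by edgeR = 0.521 and 0.307), and both turned positive with library totals (0.13 and 0.05), Acot2 also with the marker scale (0.02). This group of 5 genes had a median of −0.39.

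Set side by side, the step medians were −0.55 for lipid droplet, −0.54 for matrix cycle, −0.48 for uptake, −0.42 for peroxisomal, −0.39 for shuttle and −0.39 for thioesterase, uncoupling and Pdk4 genes. With the block and TMM scaling, 2.57% of all genes were called lower. In that fit the share called lower was 10 of 13 in the matrix cycle, 3 of 4 for droplets, 3 of 6 for uptake, 2 of 7 for the shuttle, 1 of 2 for peroxisomal genes and 2 of 5 in the last group. With the block and library totals no gene of any step was called lower, and with the block and marker scale only Ech1 was. These medians rest on 2 to 13 genes each, and differences between the steps were not tested. Per length, the levels in double colored cells were highest for Lpl (128 ± 24.4 CPM per kilobase), Etfa (88.5 ± 14.9), Acadl (59.7 ± 4.39), Cd36 (55.6 ± 3.24) and Acot13 (53.6 ± 4.83). The last 3 of these lie within their spread of each other. Leaving out Cpt1b, the lowest were Angptl4 (0.234 ± 0.0861), Acaa1a (0.835 ± 0.174), Lipe (0.857 ± 0.279) and Ucp3 (0.905 ± 0.233 CPM per kilobase).

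A further 68 genes of fatty acid handling, listed apart from the 37, had a median nearer to that of all genes and members of both signs. Both lists were chosen with earlier results of these data known. Of 62 tested, 47 were negative and 15 positive, with a median of −0.29. None passed the threshold by edgeR, 1 was lower (Fabp4) and 1 higher (Acsl5) by DESeq2, 14 were lower and 2 higher at an unadjusted p under 0.05 (6.1% and 9.02% of all genes), and with the block 8 were lower and 1 higher (2.57% and 4.97% of all genes). All 13 tested peroxisomal genes were negative (median −0.40, 2 called with the block), among them the bifunctional enzyme gene Ehhadh (−1.34 ± 0.49 (SE), adjusted p = 0.186 by edgeR) and the transporter gene Abcd3 (−0.48 ± 0.16 (SE), adjusted p = 0.152, 0.0210 with the block). Ehhadh had only 9 to 46 reads per library, with overlapping groups. In the matrix group Hsd17b10 and Acad11 had log2 fold changes of −0.63 ± 0.19 (SE) and −0.48 ± 0.17 (SE) (adjusted p by edgeR = 0.106 and 0.166, 0.0316 and 0.0167 with the block). Of droplet genes Fitm2, needed for droplet formation, had −0.67 ± 0.23 (SE), adjusted p = 0.163 by edgeR (0.0212 with the block), whereas Hilpda, a small inhibitor of Pnpla2, had 1.57 ± 0.52 (SE), adjusted p = 0.143. Hilpda was measured at 0.418, 0.363, 0.302 and 0.376 CPM in double and 0.524, 1.19, 0.624 and 2.10 CPM in single colored replicates, from 7 to 53 reads. For uptake, Fabp4, a fatty acid-binding protein of endothelium and fat cells, had −0.53 ± 0.16 (SE), adjusted p = 0.117 by edgeR (0.0152 with the block), and Acsl5, an acyl-CoA synthetase, had 0.76 ± 0.22 (SE), adjusted p = 0.0890 (0.0196 with the block). Slc25a29 and Acaca of the shuttle list had −0.76 ± 0.51 (SE) and 0.58 ± 0.37 (SE) (adjusted p = 0.523 and 0.495), and the thioesterase gene Acot1 and the kinase gene Pdk3 −1.44 ± 0.49 (SE) and 0.89 ± 0.46 (SE) (adjusted p = 0.157 and 0.394). Reads per library were few, 7 to 15 for Slc25a29, 13 to 57 for Acaca, 7 to 30 for Acot1 and 9 to 51 for Pdk3.

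In the authors' deposited table, where fold changes were taken as double over single and are printed here with reversed sign, 35 of the 37 genes were negative, against 49.6% of the genes with values there, with a median of −0.52. A raw p under 0.05 was given in the authors' deposited table for 14 of the 37, all lower, where 2.88% of the genes with values there were lower at that p, the smallest being 0.00883 for Mlycd, and the smallest FDR was 0.306.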

How the data were processed

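The deposited table covers 37991 Ensembl genes in 8 libraries. RNA was prepared with the miRNeasy Micro Kit and amplified with the Ovation RNA-seq System v2, per the labels' protocols. Alignment to mm9 with STAR 2.5.2b and counting with featureCounts of Subread come from the submitters' processing notes. Per the file headers the deposited columns used are raw counts, which were whole and were therefore neither estimated counts nor rounded. For the strand setting of the counting, nothing is given in the sources used here, and reads of overlapping antisense genes cannot be separated. The authors' deposited log2 fold changes, p-values and FDR were copied for comparison, and the test behind them is not stated in the labels or headers.

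Symbols of 32919 identifiers were found in GENCODE vM21. Counts were tested with edgeR 4.0.16 in R 4.3.3 (filterByExpr, minimum count 10, TMM, robust quasi-likelihood F-test, Benjamini-Hochberg adjustment at 0.05 over 12466 genes), and the standard error was derived from the F statistic. The procedure was tested on simulated data. Ratios, with 0.5 added to each count, used exact permutation in SciPy 1.17.1. Alternatives were DESeq2 1.42.0, no filter, library totals, TMM without mitochondrially encoded genes, scaling to cardiomyocyte markers, the replicate block and leaving out each library. After the data were seen, leaving out both libraries numbered 1 and the block combined with each of 2 scalings were added. Exon overlaps were computed with GenomicRanges 1.54.1.

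The members and lists were chosen with earlier results of these data known. All 37 members are accounted for. Of 68 other fatty acid genes those past the threshold and the 2 with the smallest p in each step are named, and others only where said. Marker lists are given by counts, medians and summed level, with names for genes at 0, for the 2 highest cardiomyocyte and adipocyte markers, and for others only where said.

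Same-numbered libraries deviated together from their group means (correlations across genes of 0.167 to 0.299 for the 4 numbers, against −0.230 to 0.128 for other combinations). As every same-numbered pair exceeded 0.1, libraries of a number were treated as pairs in the block fits and within-pair values, although 1 other combination also exceeded it. The main edgeR fit and the main ratio tests used the group labels alone. What a number stands for is not stated in the labels.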

Additional observations from a re-analysis of the deposited data

Results flagged for a closer look

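10 values stood far from the other 3 of their group, in 78 groups of 4 examined (37 genes and 2 ratios in each color), where chance flags about 1 in 20 groups. The gap to the nearest library was compared with the range of the group. Of these, 5 were double colored replicate 3, each the highest of its group. They were Hadh at 40.1 CPM (others up to 34.4), Eci1 at 21.5 CPM (others up to 14.7), Decr1 at 67.7 CPM (others up to 49.04), Ucp3 at 3.93 CPM (others up to 2.55) and Pdk4 at 67.3 CPM (others up to 32.2). Single colored replicate 1 was the lowest of its group for Hadhb at 16.05 CPM (others from 28.3), Decr1 at 16.96 CPM (others from 34.6) and Etfdh at 40.3 CPM (others from 76.9). Double colored replicate 4 was the lowest for Acadvl at 3.97 CPM (others from 4.63) and for Acaa1a at 2.55 CPM (others from 3.97). Without double colored replicate 3 the median log2 fold change of the 37 genes was −0.44 and Hadh had an adjusted p of 0.149 by edgeR.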

How the results depend on the processing

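The number of fatty acid genes called went from 1 to 7 with DESeq2, 13 without a filter on low counts, 21 with the replicate block, 0 scaled to cardiomyocyte markers, 0 without both libraries numbered 1, 1 with block and totals (Ucp2, higher, with none lower) and 2 with block and marker scale (Ech1, lower, and Ucp2, higher). For all genes the count of 309 became 556 with DESeq2, 805 without the filter, 1378 with library totals, 939 with the block, 146 without both libraries numbered 1, 3037 with block and totals and 2128 with block and marker scale. With library totals the median log2 fold change of the 37 genes was −0.072, and the step medians were −0.027 for uptake, −0.071 for droplets, 0.063 for the shuttle, −0.10 for the matrix, 0.026 for peroxisomal genes and 0.053 for the thioesterase and uncoupling group. Scaled to cardiomyocyte markers the step medians included −0.13 for uptake and −0.044 for the shuttle. With block and totals the median of the 37 was −0.11, with −0.051 for uptake, 0.042 for the shuttle, 0.00068 for peroxisomal genes and 0.051 for the thioesterase and uncoupling group, and with block and marker scale −0.13 for uptake and −0.037 for the shuttle. Log2 fold changes that turned positive with totals were Lpl 0.017, Cpt1a 0.40, Slc25a20 0.080, Crat 0.063, Acacb 0.11, Acadvl 0.059, Acadl 0.070, Eci1 0.0041, Acaa1a 0.40, Acot2 0.13 and Acot13 0.053. Those that did so with the marker scale were Cpt1a 0.40, Acacb 0.0029, Acaa1a 0.31 and Acot2 0.018, with block and totals Cpt1a 0.41, Slc25a20 0.045, Crat 0.042, Acacb 0.12, Acadl 0.059, Acaa1a 0.40, Acot2 0.10 and Acot13 0.051, with block and marker scale Cpt1a 0.33, Acacb 0.035, Acaa1a 0.31 and Acot2 0.023, and without both libraries numbered 1 Acaa1a (0.12). Library totals moved the median of all genes to 0.48. These totals include mitochondrially encoded reads, which took 82.4 ± 3.97% in single and 86.5 ± 1.88% in double colored libraries (SD, n = 4). The part of this share, or any other cause of these changes, was not tested. The Ucp3 to Ucp2 difference of −1.30, tested over pairs (replicate block), cannot pass with 4 pairs. Leaving out 1 library at a time gave 134 to 304 calls over all genes, fewer by over 1.5 times without double colored replicate 2 (193) and double colored replicate 4 (134) and single colored replicate 1 (142), 0 to 2 calls among the 37 and a median of −0.70 to −0.35. The step medians ranged over −0.61 to −0.32 for uptake, −0.81 to −0.43 for droplets, −0.60 to −0.23 for the shuttle, −0.72 to −0.37 for the matrix, −0.60 to −0.26 for peroxisomal genes and −0.55 to −0.25 for the last group. Single genes that turned sign were Cpt1a (−0.17 to 0.037) and Acaa1a (−0.27 to 0.039). The Ucp3 to Ucp2 difference was −1.63 to −0.97 and that of Cpt1b to Cpt1a −0.93 to −0.23. Cpt1b had 5 to 20 reads per library and Angptl4 10 to 65, and the part of depth in their results was not tested.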

Other observations

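Isoform families of these steps held members with fold changes of both signs, and the genes in this paragraph were singled out after their values were seen. Of the long-chain acyl-CoA synthetases, Acsl1 had a log2 fold change of −0.56 ± 0.23 (SE) and Acsl5 one of 0.76 ± 0.22 (SE). Their adjusted p by edgeR was 0.254 and 0.0890 without the replicate block, and 0.0157 and 0.0196 with it. Acsl4 had 0.30 ± 0.19 (SE), Acsl3 −0.32 ± 0.30 (SE) and Acsl6 −0.24 ± 0.42 (SE) (adjusted p by edgeR = 0.491, 0.693 and 0.853 without the block). Without the block none of these synthetase genes passed. Acsl5 was measured at 6.32, 4.59, 2.89 and 4.72 CPM in double and 8.77, 7.85, 7.98 and 6.74 CPM in single colored replicates 1 to 4, without overlap. It was positive with TMM, library totals and the marker scale, whereas Acsl1 was negative with all 3 (−0.10 with totals and −0.24 with the marker scale). Totals and the marker scale moved the bulk of genes upward, so the positive sign of Acsl5 there adds no support. Of the fatty acid-binding proteins, Fabp3 and Fabp4 had −0.47 ± 0.19 (SE) and −0.53 ± 0.16 (SE), and Fabp5 0.47 ± 0.32 (SE) (adjusted p by edgeR = 0.533). The difference between family members was not tested. In the same libraries 8 of 14 myeloid markers were called higher, and their part in the levels of Acsl5 and Fabp5 was not tested.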
